A study of Homo sapiens with 36 samples.

Results

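This comparison set HMC3 cells exposed to 50 µM perfluorooctane sulfonate (PFOS) against HMC3 cells exposed to 25 µM PFOS, both sampled after 24 h in PFOS and then 24 h in medium without it. HMC3 is an established human microglial cell line, here obtained from ATCC and kept in high-glucose DMEM with 10% fetal bovine serum and antibiotics, and PFOS is a persistent fluorinated surfactant. The members were all RNA-seq libraries that the labels place in these 2 groups, 3 at each dose, or 6 of the 36 samples of the series. The series holds 18 RNA libraries in all, with vehicle, 25 µM and 50 µM groups at 24 h of exposure and after recovery, and H3K27ac CUT&Tag libraries that stay outside this comparison. The labels call the libraries of a group biological replicates without saying which cultures were kept apart. The p-values therefore speak only of the spread among libraries, which may be technical. All cells are of 1 line, and no other genotype or agent was used.

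As background, PFOS binds fatty acid-binding proteins and nuclear receptors of the PPAR family and enters membranes. Cells under chemical stress can switch on the integrated stress response, in which ATF4 raises genes for amino acid synthesis, amino acid import and tRNA charging, as well as the NRF2 response, in which antioxidant and iron-storage genes rise. Growing, adherent cells also adjust their actin cytoskeleton and collagen-rich matrix to their attachment and growth state. Microglia are the resident macrophages of the brain. The labels call HMC3 a microglial cell, but it carried little defining RNA of microglia: 10 of 16 microglial markers listed, among them AIF1, TMEM119, CX3CR1 and TYROBP, had 0 counts in all 6 libraries.

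The 6 libraries were shallow and the 50 µM group was uneven. Total counts were 582233, 4346627 and 905359 at 25 µM and 841252, 1228047 and 755905 at 50 µM. Pairwise Pearson correlations of log2 CPM (counts scaled to library size, with TMM factors) were at least 0.951 within the 25 µM group and 0.849 to 0.937 within the 50 µM group, the lowest being between 50 µM libraries 1 and 2. Cytosolic ribosomal protein genes took 1.87% to 2.25% of the counts at 25 µM and 3.00%, 7.77% and 5.15% in 50 µM libraries 1, 2 and 3.

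After recovery, cells from the higher dose had more RNA of the collagenase gene MMP1 (log2 fold change 4.12 ± 0.63, SE, n = 3 and 3), the metallothionein gene MT2A (3.04 ± 0.36), the ferritin gene FTL (1.76 ± 0.22) and most ribosomal protein and respiratory chain genes. They had less RNA of the semaphorin gene SEMA5A (-3.33 ± 0.55), the cytoskeletal gene CALD1 (-1.07 ± 0.11), 8 of 16 collagen genes and 18 of 29 integrated stress response genes, while the stress response gene DDIT3 was higher (1.24 ± 0.25). A total of 2172 of 9847 genes tested (22.1%) differed between the doses after recovery at an adjusted p under 0.05 (edgeR quasi-likelihood test, two-sided, Benjamini-Hochberg over all genes tested). Of these, 1445 (14.7% of the genes tested) were higher and 727 (7.38%) lower at 50 µM, and 1188 differed at least 2-fold. The median log2 fold change over all genes tested was 0.01. In 2833 genes (28.8%) the 3 libraries of one dose did not overlap the 3 of the other, which held for 75.9% of the genes called higher, 89.6% of those called lower and 14.1% of those not called. The fit shared 1 estimate of the spread over all 18 RNA libraries. When only the 6 libraries entered the fit, edgeR called 0 genes (lowest adjusted p 0.079, 2000 genes at an unadjusted p under 0.05). DESeq2 then called 707 and limma voom with sample weights 2432. With all 18 libraries edgeR called 2172, DESeq2 2095 and limma voom 3162, so the number of calls depends on the tool and on the libraries fitted.

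**Figure D1:**
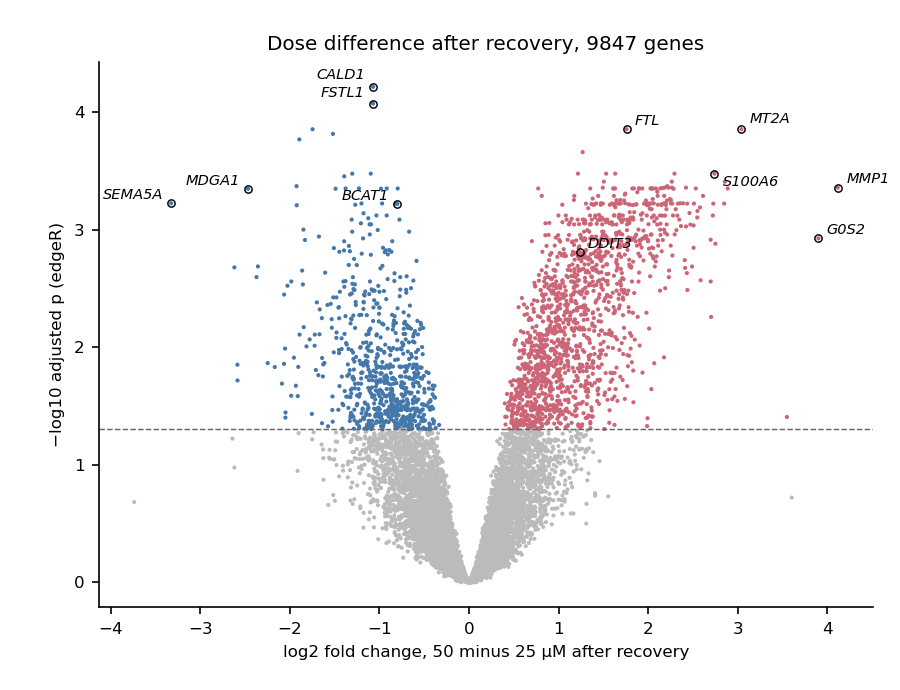
Each point is 1 of the 9847 genes tested, with the log2 fold change (50 minus 25 µM after recovery) on the x axis and −log10 of the edgeR adjusted p on the y axis; red points were called higher at 50 µM, blue points lower, grey points not called, and the dashed line is an adjusted p of 0.05. The 1445 genes called higher reach larger differences than the 727 called lower, with MMP1 and G0S2 farthest right and SEMA5A farthest left among the labelled genes.

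The 3 libraries at 50 µM departed from the 25 µM mean to different degrees. Among genes called higher, the median log2 difference from the 25 µM mean was 0.40 in library 1, 1.56 in library 2 and 1.05 in library 3. Library 1 had the smallest difference in 92.2% of these genes, and library 2 the largest in 91.5%. Among genes called lower the medians were -0.45, -1.56 and -0.77, with library 1 smallest in 74.8% and library 2 largest in 85.7%. The same sign in all 3 libraries was seen in 1348 of the 1445 higher genes and 726 of the 727 lower genes, beside 3109 of the 7675 not called and 5183 of all 9847; the call itself largely sets this count. A difference of at least 2-fold in every 50 µM library was seen in 69 of the genes called higher and 35 of those called lower. It was seen in 16 of the 7675 not called and in 120 of all 9847 (1.22%), and the call itself favours such genes.

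Leaving out 50 µM library 2 gave 931 calls, leaving out library 1 gave 3766 and leaving out library 3 gave 1779. Leaving out 25 µM library 2, the deepest, gave 957. In each of the 6 fits that left out 1 library, 756 genes were called (601 higher and 155 lower, 7.68% of the genes tested). With 50 µM library 1 as the only library of its dose, 23 genes were called. Of the 2172 genes, 88 then had the other sign.

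The largest increases named by rule (the 12 largest called changes in each direction among genes reaching a mean of 5 CPM whose groups did not overlap) began with MMP1, interstitial collagenase, which cleaves fibrillar collagen (chr11:102789919-102798160, GRCh38.p14). MMP1 had 0, 2 and 2 counts at 25 µM (0, 0.447 and 2.16 CPM) and 8, 20 and 7 counts at 50 µM (9.30, 18.2 and 9.73 CPM). Every 50 µM library lay above every 25 µM library, and the log2 fold change was 4.12 ± 0.63 (SE, n = 3 and 3, adjusted p 0.00044). G0S2, an inhibitor of the lipase that breaks down lipid droplets, stood at 0, 0.893 and 1.08 CPM at 25 µM against 1.16, 20.0 and 18.1 CPM at 50 µM (3.90 ± 0.76, adjusted p 0.0012). For G0S2 the groups were separated by 50 µM libraries 2 and 3, while library 1 lay beside the 25 µM libraries.

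MT2A, a metallothionein that binds zinc, copper and cadmium, was at 35.2, 39.3 and 50.8 CPM at 25 µM and 135, 592 and 299 CPM at 50 µM (3.04 ± 0.36, adjusted p 0.00014). The 3 libraries at 50 µM all stood well above the 25 µM range, with library 2 highest. MT1E, a second metallothionein, was at 1.68, 4.02 and 7.56 CPM against 9.30, 51.0 and 16.7 CPM (2.59 ± 0.56, adjusted p 0.0027), and was not called without 50 µM library 2 or with the gene span trend removed. MTF1, the zinc-sensing factor that acts on metallothionein genes, had a log2 fold change of -0.45 ± 0.33 (adjusted p 0.33). The upstream sequence of MT2A is shown because this gene had the largest change among those at more than 30 CPM at the lower dose. It is the RefSeq stretch of 250 bases before the start on GRCh38.p14, chr16:56608334-56608583, plus strand, with an AP-1 motif (TGANTCA, both strands searched) in capitals, whose first base lies 104 bases before the start:
MT2A: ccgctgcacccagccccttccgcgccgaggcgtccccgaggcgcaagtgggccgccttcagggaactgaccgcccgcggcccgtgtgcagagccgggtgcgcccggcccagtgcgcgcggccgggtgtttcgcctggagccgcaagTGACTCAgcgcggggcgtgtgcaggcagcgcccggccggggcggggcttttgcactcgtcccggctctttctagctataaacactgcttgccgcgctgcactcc
AP-1 letters were present in 272 of the 7637 upstream windows available for genes tested (3.56%), in 4.13% of those called higher and in 3.39% of those called lower. A match describes letters and not a bound site.

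The other increases named by this rule spanned several functions. S100A6, a calcium-binding protein of motile cells, was at 98.9, 72.1 and 78.9 CPM at 25 µM and 183, 966 and 478 CPM at 50 µM (2.74 ± 0.38, adjusted p 0.00034). SNHG5 and SNHG8, host genes of small nucleolar RNAs, changed by 2.89 ± 0.44 and 2.73 ± 0.46. TOMM7 of the mitochondrial import channel (2.86 ± 0.41), NDUFA1 and the assembly factor gene PET100 of the respiratory chain (2.85 ± 0.48 and 2.70 ± 0.52), BOLA3 for iron-sulphur clusters (2.75 ± 0.54), CMC1 (2.70 ± 0.66) and BLOC1S1 (2.72 ± 0.48) completed the set. CMC1 was no longer called without 50 µM library 2 or without 25 µM library 2.

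The largest decrease was in SEMA5A, a semaphorin that guides axons and cell migration (chr5:9035033-9546075, GRCh38.p14). It was at 21.8, 16.3 and 36.7 CPM at 25 µM and at 2.33, 0.911 and 4.17 CPM at 50 µM (-3.33 ± 0.55, adjusted p 0.00060). All 3 libraries at 50 µM were far below the lowest at 25 µM. ATP8B3, a lipid flippase gene, changed by -2.62 ± 0.56, MDGA1, a membrane-anchored adhesion protein of neurons, by -2.47 ± 0.39, and SLC43A2, an amino acid transporter, by -2.37 ± 0.52.
OTUB2, a deubiquitinase gene, fell by 2.36 on the log2 scale, SLC35E4 fell by 2.06 and SEMA3D, a second semaphorin gene, fell by 2.25. TOX2 (-2.59 ± 0.79), ABAT, which breaks down the transmitter GABA (-2.59 ± 0.74), SHROOM2 (-2.17 ± 0.62), HIVEP3 (-2.07 ± 0.58) and RIPK4 (-2.05 ± 0.56) were lower too, from mean levels of 6.06 to 12.4 CPM at 25 µM. Among these 12 genes, ABAT, TOX2, SEMA3D, SHROOM2, HIVEP3, SLC35E4 and RIPK4 lost their call without 50 µM library 2, and ABAT, SHROOM2, HIVEP3 and RIPK4 also without 25 µM library 2. ABAT, SHROOM2 and HIVEP3 lost it without 50 µM library 3 too.

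**Figure D2:**
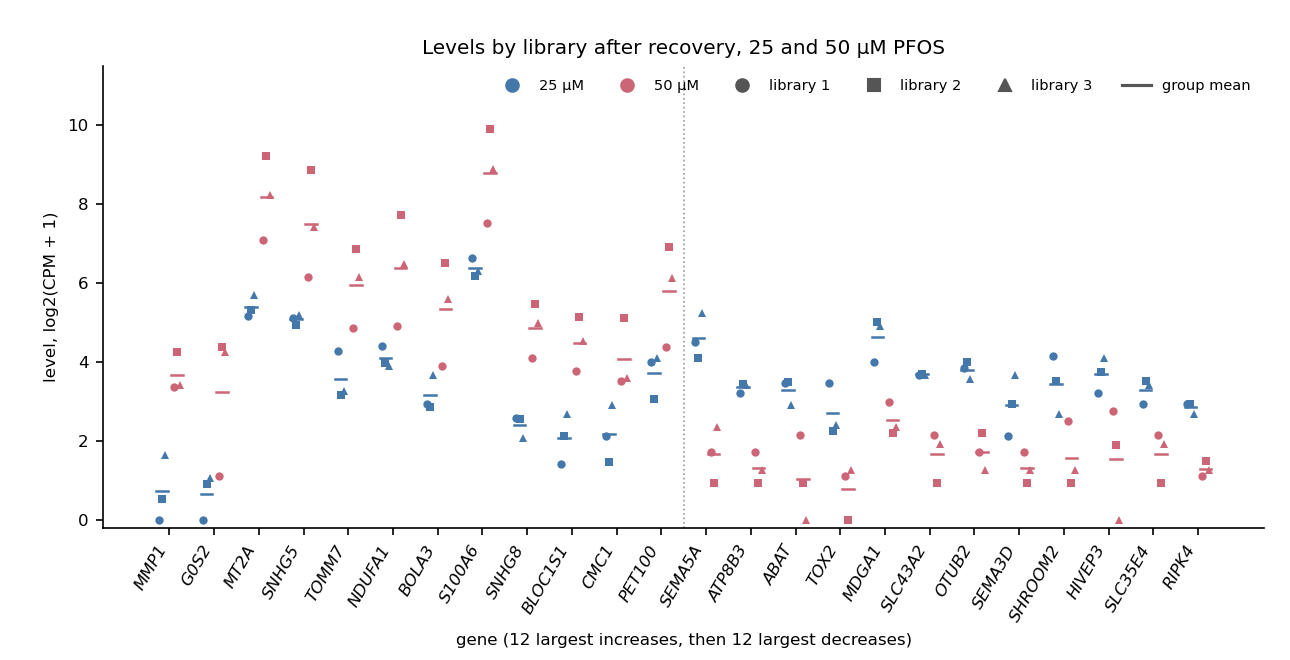
Each point is the level of 1 gene in 1 library, as log2(CPM + 1), after recovery from 25 µM (blue) or 50 µM PFOS (red); circles, squares and triangles are libraries 1, 2 and 3, and bars are means of the 3 points. The 2 doses do not overlap in any of these 24 genes, as the rule requires, and in the increases 50 µM library 1 is the closest to the 25 µM libraries.

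The lowest p-values belonged to CALD1 and FSTL1, and the differences of CALD1 were nearly equal in all 3 libraries. CALD1, caldesmon, an actin-binding regulator of contraction (chr7:134711499-134970729, GRCh38.p14), was at 1288, 1284 and 1371 CPM at 25 µM and at 650, 628 and 599 CPM at 50 µM. That is a log2 difference of -1.01, -1.06 and -1.13 in libraries 1, 2 and 3 (-1.07 ± 0.11, adjusted p 6.1e-05). FSTL1, a secreted glycoprotein, was at 2651, 2576 and 2561 CPM against 1388, 1053 and 1263 CPM (-1.07 ± 0.12, adjusted p 8.5e-05). The scaffold gene AKAP12 (-1.75 ± 0.21), the growth factor gene TGFB2 (-1.52 ± 0.19), the keratin gene KRT17 (-1.90 ± 0.24) and the receptor gene KIT (-1.30 ± 0.18) were lower with no overlap. Of these, TGFB2 varied more, at 229, 102 and 160 CPM at 50 µM against 431, 488 and 478 CPM.
NT5E, the ecto-enzyme CD73 that makes adenosine, was higher by 1.59, 1.32 and 1.55 in libraries 1, 2 and 3, from 23.5, 26.1 and 31.3 CPM to 82.5, 68.3 and 80.6 CPM (1.51 ± 0.22, adjusted p 0.00039). For NPR3, a clearance receptor of natriuretic peptides, the 3 libraries at 50 µM stood at 31.4, 28.2 and 30.6 CPM against 65.4, 64.3 and 64.8 CPM.

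Ribosomal and mitochondrial genes were higher at 50 µM in most members. Of 80 cytosolic ribosomal protein genes tested, 77 were higher at 50 µM, 0 lower and 3 not called, with a median log2 fold change of 1.82 beside 0.01 over all genes tested. This and every later list count stand beside 14.7% of all genes tested called higher and 7.38% called lower. RPS19 of the small subunit was at 288, 283 and 313 CPM at 25 µM and 576, 2278 and 1277 CPM at 50 µM (2.23 ± 0.33, adjusted p 0.00044). RPL10 of the large subunit was at 344, 332 and 377 CPM against 612, 1592 and 1053 CPM (1.63 ± 0.22, adjusted p 0.00034). In both genes every 50 µM library was above every 25 µM library, and library 2 was highest. The median over the list was 0.64 in library 1, 2.51 in library 2 and 1.68 in library 3.

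Of 76 nuclear-encoded respiratory chain genes, 66 were higher and 0 lower (median 1.64, and 0.37, 2.28 and 1.54 in libraries 1, 2 and 3). COX7A2 of complex IV was at 43.6, 45.6 and 40.0 CPM at 25 µM and 77.9, 324 and 221 CPM at 50 µM (2.27 ± 0.32, adjusted p 0.00039). ATP5I of the ATP synthase changed by 2.27 ± 0.34 and NDUFB8 of complex I by 1.63 ± 0.25. Of 76 mitochondrial ribosomal protein genes 53 were higher and 0 lower (median 1.02), such as MRPL27 (1.38 ± 0.22) and MRPS33 (1.93 ± 0.35), and of 30 import and chaperone genes 13 were higher and 1 lower, the protease gene LONP1 (-1.68 ± 0.32).
Proteasome subunits followed with 28 of 43 higher and 1 lower (median 0.70), for example PSMB5 (1.00 ± 0.18) and PSMA5 (1.52 ± 0.29). Translation factors had 15 of 41 higher and 2 lower (median 0.33), with EEF1B2 at 1.67 ± 0.28 and EIF3K at 1.41 ± 0.25. Of 15 small nucleolar RNA host genes 11 were higher and 0 lower, among them GAS5 (1.99 ± 0.35) and ZFAS1 (2.21 ± 0.42). Histone genes had 4 of 11 higher and 0 lower, led by HIST1H1C (2.28 ± 0.40) and HIST1H2BK (1.67 ± 0.31), whose reads can be shared with near-identical copies, as can those of ribosomal protein genes. Of the histone genes 2 were higher without 25 µM library 2 or without 50 µM library 2.

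**Figure D3:**
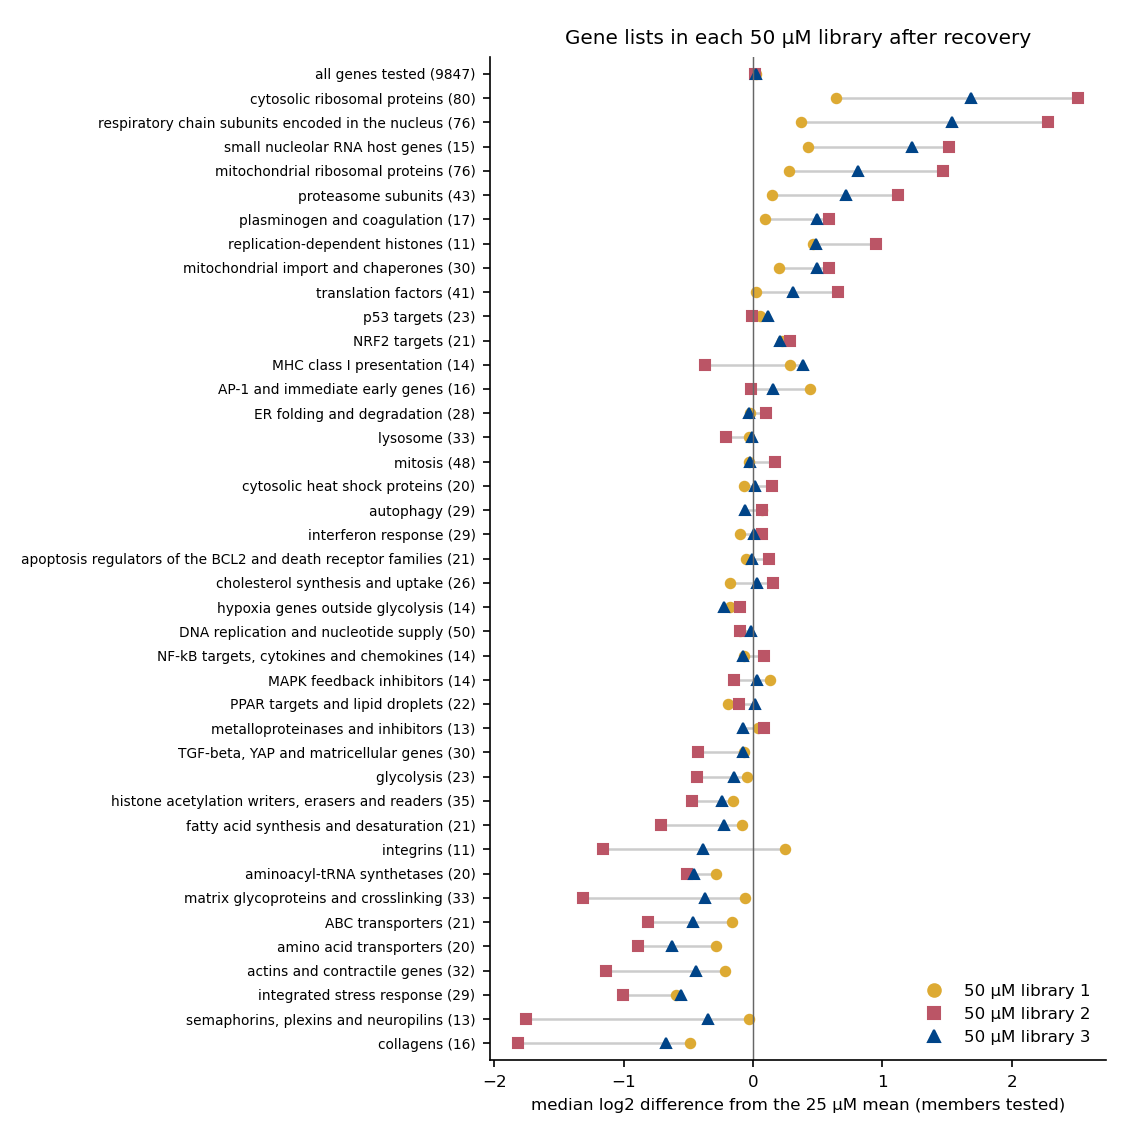
For each gene list with at least 10 members tested, the symbols mark the median log2 difference of its members from the 25 µM mean in 50 µM library 1 (circle), 2 (square) and 3 (triangle), with the number of members tested in brackets. The cytosolic ribosomal list runs from 0.64 to 2.51 and the collagen list from -0.49 to -1.82, while the integrated stress response list lies between -0.56 and -1.0 and all genes tested lie near 0 in each library.

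The dose difference moved with gene span, whose median was 5046 bases in the cytosolic ribosomal list, 10460 in the respiratory chain list and 31872 over all genes. Across 9781 genes with a RefSeq span, Spearman's rho between span and log2 fold change was -0.23, and it was -0.17, -0.18 and -0.30 in 50 µM libraries 1, 2 and 3, as a description across genes that share these libraries. Of 333 genes spanning under 3 kb, 48.0% were called higher and 1.50% lower, while of 1782 genes spanning over 100 kb 3.98% were called higher and 9.65% lower. With the span trend removed from each library, limma-trend called 72 of the cytosolic ribosomal genes, 55 of the respiratory chain genes and 32 of the mitochondrial ribosomal genes higher, with medians of 1.23, 1.08 and 0.59. In that fit the split over all genes was 1003 higher and 965 lower, against 1259 and 910 in limma-trend with the trend kept. The part of gene span and of the ribosomal share in these results was not tested. Without 50 µM library 2 the mitochondrial ribosomal genes called higher fell to 27 and the proteasome genes to 15, and without 25 µM library 2 to 32 and 16, while the cytosolic ribosomal list had 74 and 76.

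**Figure D4:**
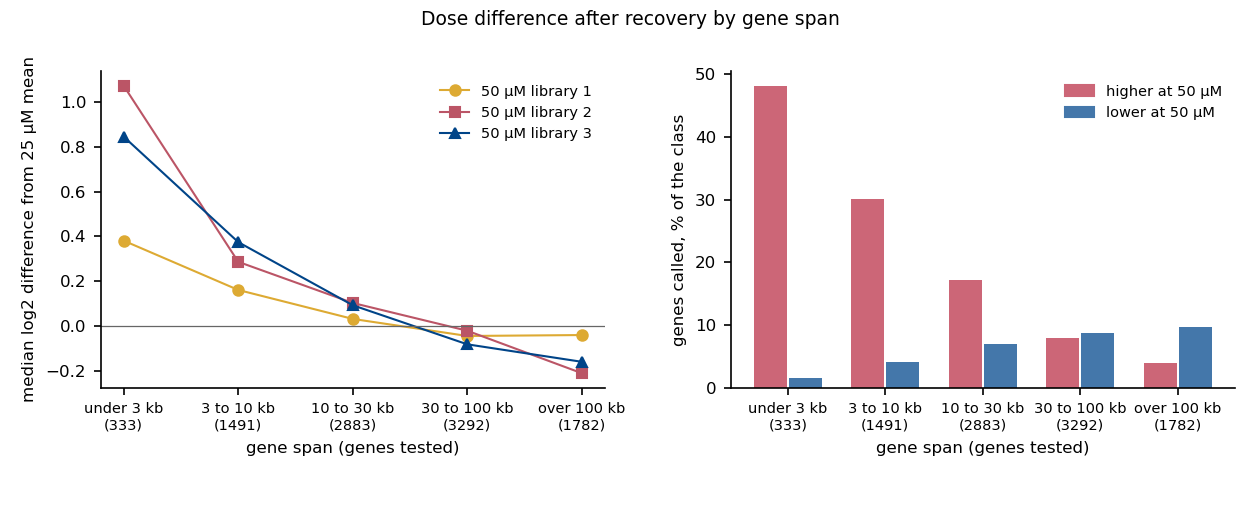
Left, the median log2 difference from the 25 µM mean by class of gene span in each 50 µM library, with the number of genes tested in brackets; right, the share of each class called higher (red) or lower (blue) at 50 µM. In all 3 libraries the median falls from the shortest class to the classes over 30 kb, and the share called higher falls from 48.0% to 3.98%.

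Genes of the integrated stress response were lower at 50 than at 25 µM after recovery. Of 29 tested, 18 were lower, 1 higher and 10 not called (median -0.68), and the medians in libraries 1, 2 and 3 were -0.60, -1.0 and -0.56. SLC7A5, the large neutral amino acid carrier, was at 58.7, 92.2 and 92.9 CPM at 25 µM and 38.4, 11.8 and 16.7 CPM at 50 µM (-1.92 ± 0.33, adjusted p 0.00062). SLC6A9, a glycine transporter, was at 33.5, 34.6 and 23.8 CPM against 13.9, 5.47 and 6.95 CPM (-1.85 ± 0.34, adjusted p 0.0010). In both genes no 50 µM library reached the lowest 25 µM library. The serine synthesis genes PHGDH (-0.68 ± 0.17) and PSAT1 (-0.62 ± 0.13), the folate enzyme gene SHMT2 (-0.70 ± 0.15), the asparagine synthetase gene ASNS (-0.80 ± 0.21) and PCK2, mitochondrial PEP carboxykinase (-1.20 ± 0.24), were lower without overlap.
CHAC1, which degrades glutathione and is induced by ATF4, was at 127, 112 and 85.4 CPM at 25 µM and 68.6, 25.5 and 66.7 CPM at 50 µM (-1.04 ± 0.32, adjusted p 0.023), and was not called without 25 µM library 1, 25 µM library 2 or 50 µM library 2. ATF4 itself, whose activity is set largely by translation, had a log2 fold change of 0.15 ± 0.18 (adjusted p 0.58).

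The exception was DDIT3, the pro-apoptotic factor CHOP. It was at 78.8, 68.8 and 58.3 CPM at 25 µM and 88.4, 235 and 154 CPM at 50 µM (1.24 ± 0.25, adjusted p 0.0015). All 3 libraries at 50 µM were above the 25 µM range, library 1 by the least. CHAC1 and DDIT3 are shown together because these members of 1 list had calls in opposite directions, that of CHAC1 lost on leaving out any 1 of the 3 libraries named above. The capitals mark the composite ATF4 and C/EBP motif (TTGCATCA) in CHAC1, first base 209 bases before the start. In DDIT3 they mark the AP-1 motif (TGANTCA), first base 241 bases before the start. The DDIT3 stretch stops short of the start, and that base lies 238 bases before its end. Both strands were searched, and neither motif overlapped another motif searched. The stretches, from RefSeq on GRCh38.p14, are chr15:40953221-40953470, plus strand, and chr12:57520518-57520764, minus strand:
CHAC1: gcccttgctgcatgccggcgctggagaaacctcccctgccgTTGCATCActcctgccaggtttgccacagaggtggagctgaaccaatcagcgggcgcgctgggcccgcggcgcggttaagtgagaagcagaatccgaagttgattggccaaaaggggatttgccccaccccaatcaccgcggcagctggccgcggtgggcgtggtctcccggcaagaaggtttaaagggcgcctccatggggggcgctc
DDIT3: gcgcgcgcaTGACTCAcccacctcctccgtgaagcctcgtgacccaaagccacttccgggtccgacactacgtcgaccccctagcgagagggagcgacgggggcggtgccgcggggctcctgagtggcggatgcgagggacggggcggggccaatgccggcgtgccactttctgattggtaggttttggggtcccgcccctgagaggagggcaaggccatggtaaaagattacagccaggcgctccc
TTGCATCA was present in 26 of the 7637 windows (0.34%) and in 1 of the 25 windows available for the list, that of CHAC1, while AP-1 letters were in 3 of the 25 (DDIT3, SLC3A2 and KLHL24). The E-box CACGTG was present in 9.30% of all windows, 9.25% of those called higher and 10.5% of those called lower. The CCAAT box was present in 36.3%, 37.3% and 33.3%.

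Genes for tRNA charging and amino acid import were lower wherever called. Of 20 aminoacyl-tRNA synthetase genes, 10 were lower and 0 higher (median -0.39). IARS was at 847, 806 and 756 CPM at 25 µM and 536, 456 and 524 CPM at 50 µM (-0.67 ± 0.12, adjusted p 0.0010), and GARS was at 283, 295 and 290 CPM against 196, 193 and 189 CPM (-0.59 ± 0.12, adjusted p 0.0018). The 50 µM libraries of both genes were close to each other and all below the 25 µM libraries. MARS (-0.97 ± 0.16), CARS (-0.92 ± 0.16) and YARS (-0.70 ± 0.16) were lower as well. Of 20 amino acid transporter genes 8 were lower and 0 higher (median -0.56), 4 of which are in the stress response list too. SLC6A6, the taurine carrier, changed by -1.11 ± 0.21 and SLC1A5, a glutamine carrier, by -1.19 ± 0.34, the latter not called without 25 µM library 2. Without 25 µM library 2, 9 of the stress response genes, 5 of the synthetase genes and 5 of the transporter genes were lower, and without 50 µM library 3, 6 of the synthetase genes. With the gene span trend removed, in limma-trend, the counts were 22, 7 and 10. Genes without a RefSeq span, such as GARS and MARS, did not enter that fit and are not lost calls.

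Most of the cytoskeletal and matrix genes that were called were lower. Of 32 actin and contractile genes 13 were lower, 5 higher and 14 not called (median -0.59). ACTB, cytoplasmic actin, was at 6584, 7898 and 6931 CPM at 25 µM and 5293, 2655 and 4586 CPM at 50 µM (-0.77 ± 0.18, adjusted p 0.0037), with no overlap. MYH9, non-muscle myosin, changed by -1.25 ± 0.26, VCL, vinculin of focal adhesions, by -0.94 ± 0.19, and TAGLN by -0.59 ± 0.16. Profilin, PFN1 (0.97 ± 0.22), and the myosin light chain genes MYL6 (0.97 ± 0.23) and MYL12B (1.29 ± 0.27) were among the higher ones. With the span trend removed, 17 of the list were lower and 1 higher.

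Of 16 collagen genes 8 were lower and 0 higher (median -1.02). COL4A1, of basement membranes, was at 36.9, 41.8 and 40.0 CPM at 25 µM and 13.9, 8.20 and 9.73 CPM at 50 µM (-1.93 ± 0.28, adjusted p 0.00043). COL8A1 (-1.23 ± 0.19) and COL5A2 (-1.38 ± 0.21) were lower without overlap. COL1A1 was called (-1.04 ± 0.36, adjusted p 0.044) but stood at 951 CPM in 50 µM library 1 against 1036, 1392 and 1079 CPM at 25 µM, and at 139 and 625 CPM in libraries 2 and 3. Its call was lost on leaving out any 1 of the 25 µM libraries or 50 µM library 3. Of 33 matrix glycoprotein and crosslinking genes 6 were lower and 0 higher (median -0.52). SPARC, a collagen-binding matricellular protein, was at 1947, 1802 and 1812 CPM against 1165, 938 and 1099 CPM (-0.80 ± 0.12, adjusted p 0.00045), and the crosslinking enzyme gene LOXL2 changed by -1.51 ± 0.30. Of 11 integrin genes 3 were lower and 0 higher, with ITGA5 at -1.27 ± 0.32, ITGA11 at -1.04 ± 0.30 and ITGB1 at -0.41 ± 0.12, and 0 were lower without 25 µM library 2. The collagen count was 5 without 25 µM library 1 or library 2. The matrix count was 3 without 50 µM library 2, 3 without 25 µM library 2 and 18 without 50 µM library 1.

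Of 17 plasminogen and coagulation genes 7 were higher and 1 lower (median 0.61), and 4 were higher without 50 µM library 2 or without 25 µM library 2. PLAUR, the urokinase receptor, was at 35.2, 40.6 and 40.0 CPM at 25 µM and 62.8, 96.6 and 82.0 CPM at 50 µM (1.04 ± 0.19, adjusted p 0.00087), and PLAU, urokinase, changed by 0.92 ± 0.22. The groups did not overlap in either gene. Of 13 metalloproteinase and inhibitor genes MMP1 and TIMP1 were higher (TIMP1 by 1.08 ± 0.22) and ADAM19 lower (-1.34 ± 0.26). Among 30 TGF-beta and YAP genes, TGFB2, AMOTL2 (-1.18 ± 0.23) and THBS1 (-1.04 ± 0.31) were lower and ANKRD1 (0.89 ± 0.21) and ID2 (0.88 ± 0.31) higher. THBS1 was not called without 25 µM library 2, nor ANKRD1 without 50 µM library 2, nor ID2 on leaving out library 2 or 3 of either dose.

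NRF2 targets included 6 of 21 higher and 0 lower (median 0.16). FTL, the ferritin light chain that stores iron, was at 2208, 2037 and 2200 CPM at 25 µM and 4343, 10260 and 7207 CPM at 50 µM (1.76 ± 0.22, adjusted p 0.00014). FTH1, the ferritin heavy chain, changed by 1.27 ± 0.17, and NQO1, a quinone reductase, was at 174, 141 and 147 CPM against 280, 435 and 349 CPM (1.22 ± 0.17, adjusted p 0.00034). All 50 µM libraries of these genes lay above all 25 µM libraries. PRDX1 (1.24 ± 0.23), TALDO1 (0.82 ± 0.19) and TXN (1.27 ± 0.32, not called without 25 µM library 2) were the others, while HMOX1, heme oxygenase, had -0.31 ± 0.34 (adjusted p 0.55) and the cystine carrier gene SLC7A11 had -0.35 ± 0.34 (adjusted p 0.49).

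Endoplasmic reticulum and heat shock genes had few calls. Of 28 folding and degradation genes 4 were higher, namely SEC61B, MANF, SDF2L1 and DERL2, and XBP1 was lower (-0.52 ± 0.15). HSPA5, the main chaperone of this compartment, was at 1636, 1699 and 1670 CPM against 1604, 1595 and 1512 CPM (-0.09 ± 0.11, adjusted p 0.60). Without 25 µM library 2, 1 of the folding genes (SEC61B) was higher and 0 lower. Of 20 cytosolic heat shock genes HSPE1 (2.47 ± 0.45) and HSPB1 (0.82 ± 0.24) were higher and HSF1 and HSPA1B lower, the lower ones not called without 25 µM library 2 or 50 µM library 2, and HSPB1 not without 25 µM library 1 or 50 µM library 3. Of 23 p53 targets 3 were higher, TP53I3, GADD45A and FAS, and 0 lower; 0 were called without 50 µM library 3 or 25 µM library 2. The shares called in the folding and p53 lists were not above those over all genes tested (14.7% higher, 7.38% lower). With the gene span trend removed, MANF, SDF2L1, HSPB1, TP53I3 and GADD45A were not called.

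Cholesterol genes went both ways, and the fatty acid synthesis genes that were called were lower. Of 26 cholesterol synthesis and uptake genes 5 were higher, 6 lower and 15 not called (median -0.04). EBP, a sterol isomerase, was at 154, 159 and 162 CPM at 25 µM and 180, 392 and 292 CPM at 50 µM (0.87 ± 0.19, adjusted p 0.0029). FDPS, farnesyl diphosphate synthase, was at 813, 826 and 817 CPM against 832, 1765 and 1395 CPM (0.70 ± 0.18, adjusted p 0.0098). In both genes library 1 was barely above the 25 µM libraries. The squalene epoxidase gene SQLE (-0.43 ± 0.14), the sterol sensor gene INSIG1 (-0.51 ± 0.16) and SREBF2, a transcription factor of this pathway (-1.12 ± 0.33), were among the lower ones. FDPS was not called without 50 µM library 2 or with the gene span trend removed. SQLE, INSIG1 and SREBF2 were not called without 25 µM library 2 or 50 µM library 2.
Of 21 fatty acid synthesis and desaturation genes 7 were lower and 0 higher (median -0.30), with SCD at 4980, 5051 and 5281 CPM against 4062, 2051 and 3218 CPM (-0.72 ± 0.17, adjusted p 0.0061). FASN (-1.21 ± 0.32), ACLY (-0.87 ± 0.27) and SREBF1 (-1.19 ± 0.39) were lower too. Of 22 PPAR target and lipid droplet genes 4 were higher and 5 lower (median -0.11). ANGPTL4, a lipase inhibitor and PPAR target, was among the higher ones at a fitted 3.55 ± 1.34 (adjusted p 0.039), but rested on 0, 1 and 0 counts at 25 µM and 3, 0 and 4 counts at 50 µM, with overlap, and was not called in 5 of the 6 fits that left out 1 library. Without 25 µM library 2, 1 fatty acid gene (SCD) was lower and 2 cholesterol genes were called; without 50 µM library 2 the numbers were 3 and 2. Of the PPAR list 1 gene was called without 25 µM library 2.

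Cell cycle genes were mixed. Of 48 mitosis genes 11 were higher, 4 lower and 33 not called (median 0.01). PTTG1, securin, was at 98.9, 72.1 and 89.7 CPM at 25 µM and 154, 502 and 276 CPM at 50 µM (1.88 ± 0.30, adjusted p 0.00048), and AURKB was at 109, 127 and 130 CPM against 151, 241 and 224 CPM (0.74 ± 0.16, adjusted p 0.0031). The groups did not overlap in either. MYBL2 (-1.06 ± 0.24), KIF20A (-0.50 ± 0.15) and ANLN (-0.40 ± 0.12) were lower. Of 50 DNA replication genes 9 were higher, such as PCNA (1.14 ± 0.25) and RFC4 (1.18 ± 0.24), and 5 lower, such as POLE (-1.17 ± 0.27), RPA1 (-0.54 ± 0.13) and MCM2 (-0.99 ± 0.29). Without 50 µM library 2, 3 mitosis genes were higher and 3 lower, and 4 replication genes higher and 2 lower. Without 25 µM library 2 the counts were 4 and 1, and 4 and 2. KIF20A, ANLN and MCM2 were each not called without 25 µM library 2.

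Inflammatory and immune genes changed in small numbers. CXCL8, a neutrophil-attracting chemokine, was the 1 gene called among 14 NF-kB targets and cytokines (1.68, 3.80 and 1.08 CPM against 6.98, 14.6 and 8.34 CPM, 1.77 ± 0.54, adjusted p 0.021). IL6 had 0.81 ± 0.48 (adjusted p 0.22). Without 50 µM library 2 or 25 µM library 3, CXCL8 was not called. Of 16 AP-1 and immediate early genes 4 were higher and 0 lower: FOSL1 was at 95.6, 116 and 96.2 CPM against 165, 138 and 208 CPM (0.70 ± 0.16, adjusted p 0.0043), with IER3 (0.82 ± 0.19), KLF6 (1.15 ± 0.31) and FOS (0.65 ± 0.22), of which 2 were called without 25 µM library 2. Of 29 interferon genes 3 were higher, led by ISG15 (1.31 ± 0.30), and 2 lower, shares not above those over all genes tested, and without 50 µM library 2, 1 was higher and 0 lower. Of 14 class I presentation genes B2M (1.49 ± 0.28), PSMB9 and PSMB8 were higher. PSMB9 and PSMB8 were not called without 50 µM library 2, nor PSMB8 without 25 µM library 2. PSMB8 had the other sign when 50 µM library 1 stood alone (-0.48). With the gene span trend removed, in limma-trend, CXCL8, IER3, FOS, PSMB8 and ISG15 were not called. In that fit 0 of the higher interferon genes kept their call. FOS, PSMB8 and the interferon gene IFI6 were also not called by limma-trend with the span trend kept.
Of 33 lysosome genes 7 were higher, such as CD63 (1.35 ± 0.21), CTSL (1.08 ± 0.24) and HEXA (0.63 ± 0.17), and 4 lower, including the cholesterol exporter gene NPC1 (-0.97 ± 0.20), while its soluble partner NPC2 was higher (1.55 ± 0.28). Over all genes tested 14.7% were higher and 7.38% lower. Without 25 µM library 2, 3 of the lysosome genes were higher and 1 lower, and HEXA was not called. CTSL was not called with the gene span trend removed. Of 21 ABC transporter genes 5 were lower and 0 higher, led by ABCB1, the drug efflux pump, which was at 40.2, 47.8 and 33.5 CPM at 25 µM and 16.3, 15.5 and 20.8 CPM at 50 µM (-1.27 ± 0.22, adjusted p 0.00062). Without 25 µM library 2 or 50 µM library 2, 1 of the 21 was lower. Of 35 genes for histone acetylation writers, erasers and readers HDAC5 (-1.13 ± 0.37) and HDAC7 (-1.03 ± 0.31) were lower and 33 were not called, and 0 were called without 25 µM library 2, 50 µM library 2 or 50 µM library 3.

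The question of whether the dose difference was the same before recovery was put to a test of the difference itself, since the 24 h and recovery groups share no library. At 24 h, 729 genes (7.40%) differed between 50 and 25 µM. Of these, 207 differed in the same direction after recovery, which is 28.4% of the 24 h genes and 9.53% of the recovery genes, and 16 differed in opposite directions. The dose difference itself differed between the times in 275 genes (2.79%), with 173 more positive and 102 more negative after recovery. Leaving out 1 of the 12 libraries gave 45 to 2267 genes, the lowest without 25 µM recovery library 2 and the highest without 50 µM recovery library 1.

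Integrated stress response genes were among those with a more negative dose difference after recovery. The list's median was 0.28 at 24 h, where 7 genes were higher and 0 lower, against -0.68 after recovery, and the difference between the times was called in 12 of the 29 genes, all negative. GTPBP2, an ATF4-induced GTPase, was at 49.0, 67.4 and 62.9 CPM at 25 µM and 153, 169 and 170 CPM at 50 µM at 24 h, and at 60.4, 56.3 and 46.5 CPM against 40.7, 22.8 and 36.1 CPM after recovery. Its 50 µM libraries were thus all above at 24 h and all below after recovery (difference -2.18 ± 0.30, adjusted p 0.00063). STC2, a secreted glycoprotein induced by stress, was at 471, 486 and 522 CPM against 952, 898 and 992 CPM at 24 h and at 236, 279 and 238 CPM against 193, 119 and 169 CPM after recovery (difference -1.60 ± 0.21).
TRIB3, a pseudokinase that restrains ATF4, had 1.32 at 24 h and -0.85 after recovery, and the amino acid carrier genes SLC3A2 (0.85 and -0.58) and SLC38A1 (0.81 and -0.55) behaved alike in sign. BCAT1, which transaminates branched-chain amino acids, had 0.54 and -0.80, GARS had 0.39 and -0.59, and the matrix crosslinking gene LOX had 1.12 and -0.60. All of these passed the test of the difference, with adjusted p from 0.00063 to 0.0037, and also in each of the 12 fits that left out 1 library. The call after recovery alone was lost without 1 library for GTPBP2 (25 µM library 1 or 2, or 50 µM library 2), TRIB3 and LOX (25 µM library 2 or 50 µM library 2) and SLC3A2 (25 µM library 2). Of the aminoacyl-tRNA synthetase genes 6 had a negative difference and 0 a positive one.

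The dose difference was more positive after recovery in 9 of 26 cholesterol genes and 9 of 48 mitosis genes. Among 26 cholesterol genes 17 were lower at 50 µM at 24 h (median -0.92), and the difference between the times was positive in 9 and negative in 0. FDPS had -0.84 at 24 h and 0.70 after recovery, and EBP had -0.66 and 0.87. IDI1, an isomerase of the same pathway, had -1.18 and 0.50, the latter not called (adjusted p 0.092). Mitosis genes had a median of -0.51 at 24 h, with 21 lower and 0 higher, and 9 positive differences. SLC39A10, a zinc importer, stayed lower at both times, at 50.7, 56.2 and 51.0 CPM against 210, 191 and 192 CPM at 24 h (-1.91) and 151, 152 and 140 CPM against 218, 192 and 199 CPM after recovery (-0.45), so the dose difference shrank (1.46 ± 0.19, adjusted p 0.00063). Its call after recovery was lost without 25 µM library 1 or 50 µM library 3, and with the gene span trend removed.
For MMP1 and MT2A the difference between the times was not called (0.05 ± 0.85, adjusted p 0.93, and 0.96 ± 0.48, adjusted p 0.24), with 24 h dose differences of 4.07 and 2.08. Collagens had a median of -0.83 at 24 h. The ribosomal and respiratory chain lists had medians of 0.37 and 0.10 at 24 h and 14 positive differences each. Over all genes the positive differences numbered 173, but 20 without 25 µM recovery library 2. The positive counts of the cholesterol, mitosis, ribosomal and respiratory chain lists therefore cannot all hold without that library.

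**Figure D5:**
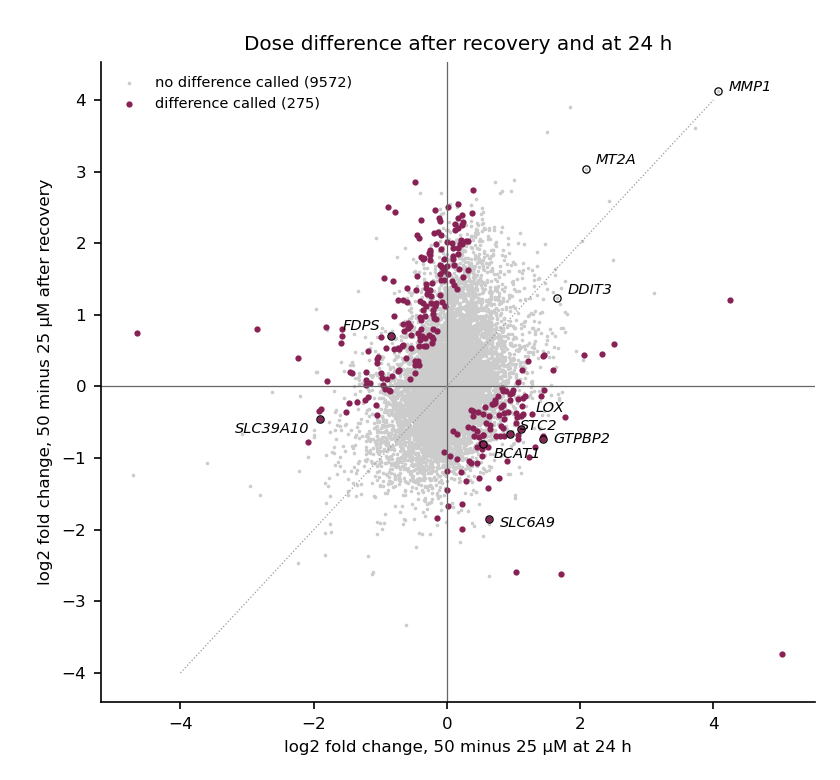
Each point is 1 gene, with its log2 fold change between 50 and 25 µM at 24 h on the x axis and after recovery on the y axis; purple points are the 275 genes whose dose difference was called different between the times, grey points the other genes, and the dotted line marks equal values. GTPBP2, STC2, LOX, BCAT1 and SLC6A9 lie at the lower right, FDPS at the upper left, and MMP1, MT2A and DDIT3 at the upper right.

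Both doses share the vehicle group after recovery, so the values are given side by side. Against vehicle, 2800 genes (28.4%) differed at 50 µM and 0 (0%) at 25 µM by edgeR (693 genes at an unadjusted p under 0.05, lowest adjusted p 0.49). The ribosomal list had medians of 2.27 at 50 µM and 0.42 at 25 µM against vehicle, the respiratory chain list 1.85 and 0.16, and the collagens -1.24 and -0.13. The stress response list had -0.37 and 0.40, and amino acid transporters -0.51 and 0.20. SLC3A2 stood at 314, 307 and 330 CPM in vehicle, 491, 534 and 440 CPM at 25 µM and 360, 260 and 367 CPM at 50 µM. GTPBP2 stood at 33.7, 29.1 and 34.3 CPM in vehicle. For these genes the 25 µM libraries were the highest of the 3 groups after recovery, although the difference from vehicle was not called (SLC3A2 0.63, adjusted p 0.49; GTPBP2 0.76, adjusted p 0.52).

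Markers of other cell types moved in places with the dose. The summed level of 14 fibroblast and mesenchymal markers was 2520 to 2998 CPM at 25 µM and 1191 to 2554 CPM at 50 µM, with COL1A1, PDGFRA and PDGFRB lower (none of the 3 called without 25 µM library 2), NT5E higher, and COL3A1, DCN, LUM and POSTN at 0 in all 6 libraries. Of 11 pericyte and smooth muscle markers, PDGFRB, MCAM and TAGLN were lower, and the sum was 864 to 921 CPM against 458 to 614 CPM. Of 15 macrophage and leukocyte markers CD68 was higher and 6 were at 0, PTPRC among them, with sums of 25.2 to 34.6 CPM against 53.8 to 63.9 CPM. KRT18 was higher among 8 epithelial markers, whose sum of 657 to 729 CPM against 1047 to 1310 CPM was nearly all KRT18 itself (means of 649.6 and 1111 CPM), and KRT19 was at 0. The 16 microglial markers summed to 203 to 236 CPM and 220 to 342 CPM at the 2 doses, and neither of the 2 tested was called. Of the astrocyte, neuron, oligodendrocyte and endothelial markers only 2, 2, 1 and 0 were high enough to be tested, and 0 were called. The part of these markers in the results was not tested, and in bulk RNA fewer cells of a kind and less RNA per cell cannot be told apart.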

How the data were processed

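RNA-seq was made from TRIzol RNA by Smart-seq2 with poly(A) selection and paired ends, per the labels' protocols. The values are whole-number counts, a single table for all RNA libraries with gene symbols as names, deposited by the authors without normalization. Per the submitters' processing notes, the series used Trimmomatic, STAR, DESeq2 and MACS2 with GRCh38 and hg38. The counter, annotation, strand option and versions were not given in the sources used here. The CUT&Tag samples were not analysed here. Smart-seq2 has no molecular identifiers, so counts are not independent molecules. Reads of overlapping or antisense genes, and of near-identical copies (ribosomal proteins, metallothioneins, actins, histones), cannot be told apart.

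Counts were fitted with edgeR 4.0.16 in R 4.3.3: filterByExpr (minimum count 10; 9847 of 25344 symbols, 99.2% of counts), TMM, 1 mean for each of 6 groups over 18 libraries, quasi-likelihood tests adjusted by Benjamini-Hochberg at 0.05 ("called"). The labels gave each library's group, and 0 columns lacked a sample. CPM use TMM-scaled sizes. Each SE was taken from the F statistic of this fit and the log2 fold change before shrinkage. Log2 differences of single libraries use a prior count of 2. The fits were also run on simulated counts. Such counts cannot show whether the spread was equal in all groups of these libraries, which the edgeR fits assume. They therefore give no support to the calls themselves. Total counts of 582233 to 4346627 in the 6 libraries limit the precision of low genes. Named genes were the 12 largest called changes in each direction (at least 5 CPM in a group, groups not overlapping, no clone names), the 4 lowest p-values of each of 43 lists and the 6 lowest p-values of the test between times; other genes named were chosen after their values were seen. Members, lists, rules and tests were chosen with earlier results of these data known, and give no independent support. Alternatives were other scaling, filters, tools (DESeq2 1.42.0, limma 3.58.1), libraries, a replicate block, thinning and removal of the gene-span trend. The last used limma-trend on the 9781 genes with a RefSeq span, so the tool and the genes tested changed too. Spans and upstream sequences are from RefSeq, GRCh38.p14. Some single genes are not reported here.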

Additional observations from a re-analysis of the deposited data

Results flagged for a closer look

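The dose difference (50 minus 25 µM, log2) differed between recovery and 24 h in 275 genes by the edgeR test of the difference itself. The 6 with the lowest p-values were STC2 (-1.60), SLC39A10 (1.46), LOX (-1.72), SLC3A2 (-1.43), BCAT1 (-1.34) and GTPBP2 (-2.18), each at an adjusted p of 0.00063, where a negative value means a lower dose difference after recovery. SLC39A10, a zinc importer, was lower at 50 µM at both times, and the others changed sign. The call after recovery alone was lost on leaving out 1 library for SLC39A10 (25 µM library 1 or 50 µM library 3), GTPBP2 (25 µM library 1 or 2, or 50 µM library 2), LOX (25 µM library 2 or 50 µM library 2) and SLC3A2 (25 µM library 2). Groups of 3 libraries were not tested for single libraries far from the rest.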

How the results depend on the processing

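Calls after recovery numbered 2172 (1445 higher, 727 lower). Fits with limma voom and weights gave 3162 calls, 1230 of them lower; no filter gave 1152 lower; the 9 recovery libraries gave 869 (720 and 149); thinning every library to 582233 counts gave 432 (342 and 90); the 6 libraries gave 0 in all (0 higher, 0 lower) by edgeR, 707 (602 and 105) by DESeq2 and 2432 by limma voom; and library 1 alone at 50 µM gave 23 (10 and 13). The last setting, the 6 libraries by DESeq2 and limma voom, and limma-trend with the span trend kept were chosen after seeing the data. Sample weights of limma voom on all 18 libraries were 0.35, 0.15 and 3.3 for 50 µM recovery libraries 1, 2 and 3. Library 3 thus counted most in that dose. Leaving out 1 library gave 931 to 3766 calls, 680 to 2089 higher and 224 to 1677 lower. These edgeR fits, like the main fit, take the spread of a gene to be equal in all groups. A dose with 2 libraries adds less to that estimate, and a dose with 1 library adds nothing. Of the 2172 calls, 99.3% were kept with RLE scaling, 92.4% with DESeq2, 40.0% with the 9 recovery libraries and 19.8% after thinning. Under limma-trend 88.1% were kept with the span trend and 71.5% without it. RLE moved the median of all genes by under 0.1.

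The difference between the times was called in 275 genes (173 positive, 102 negative), in 240 with RLE scaling, and in 45 to 2267 (20 to 1348 and 25 to 919) leaving out 1 library. Between the doses after recovery, deviations from the group mean had correlations of -0.13, -0.34 and -0.05 in libraries of equal replicate number. Deviations within a small group depend on each other, so these values cannot show whether libraries of equal number shared a culture or batch. With the replicate block 2116 genes were called after recovery. Between the times 169 were then called (101 and 68), against 275 without the block.

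Signs turned for FABP5 (-0.31), PSMB8 (-0.48), PSMB10 (-0.094), MTF1 (0.22), ABCA1 (0.024), CXCL1 (-0.99) and CYP1B1 (0.20) with library 1 alone, GAPDH (-0.0045), TPI1 (-0.094) and CXCL1 (-0.21) without the span trend, PTX3 with limma voom (-0.036, and -0.015 on the 6 libraries), and CYP1B1 after thinning (0.18). The causes were not tested.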

Other observations

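Autophagy genes, not described above, had few calls. Of 29 autophagy genes tested, 4 were higher at 50 than at 25 µM and 2 lower after recovery (median 0.01). These shares were not above those over all genes tested (14.7% higher, 7.38% lower). GABARAPL2 and GABARAP, small ubiquitin-like proteins of the autophagosome membrane, changed by 1.42 ± 0.23 (SE, n = 3 and 3, edgeR adjusted p 0.00060) and 1.10 ± 0.21 (adjusted p 0.0012), and ATG9A, the lipid scramblase of the same membrane, by -1.61 ± 0.34 (adjusted p 0.0023). No 50 µM library overlapped a 25 µM library in these 3 genes.

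Of 13 semaphorin, plexin and neuropilin genes 2 were higher and 4 lower (median -0.70). NRP1, a coreceptor for semaphorins and VEGF, was at 30.2, 52.7 and 46.5 CPM at 25 µM and 95.3, 72.0 and 72.2 CPM at 50 µM (0.81 ± 0.22, edgeR adjusted p 0.013, not called without 25 µM library 1), opposite to SEMA5A and SEMA3D. Of 14 hypoxia genes BNIP3, a mitophagy receptor, was higher (0.99 ± 0.20, adjusted p 0.0020), while EPAS1 (-1.18 ± 0.28), DDIT4 (-0.75 ± 0.20) and HIF1A (-0.39 ± 0.13) were lower, DDIT4 and HIF1A not without 25 µM library 2. Of 23 glycolysis genes 3 were higher and 3 lower, with HK1, hexokinase, at -0.96 ± 0.30, and 0 were called without 25 µM library 2 or 50 µM library 2. Of 21 apoptosis regulators FAS was called higher, of 14 MAPK feedback inhibitors DUSP14 (0.65 ± 0.17), of 6 sterol export genes SREBF1 lower, and of 5 xenobiotic receptor targets ABCB1 lower. Over all genes tested 14.7% were higher and 7.38% lower, and FAS, DUSP14 and SREBF1 were each not called without 50 µM library 2.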
